A study of Saccharomyces cerevisiae with 9 samples.

Results

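A set of 38 genes of the wine yeast AWRI R2 had a level in cultures with 1.0 g/L proanthocyanidins (PAs) at least 4 times that in cultures without PAs, while the level with 0.1 g/L PAs, as solved from the deposited means, lay close to that without PAs. The closeness of these 2 levels is not firm, because it rests on means from separately normalized tables. Rescaling the tables to median group ratios of 1 took changes of 0.453% and -1.05%, and 28 of the 38 genes still met the rule. Under a given shift of 1 table by 5%, described at the end, between 6 and 34 of them met it. Under all 6 shifts 0 met it, an outcome that the limits of the rule fix for any member. The members were chosen by these measured levels: the ratio of the group with 0.1 g/L PAs to the control had to lie between 0.8 and 1.25, and the largest of the 3 group levels had to be at least 50 normalized counts. The rule kept 5584 of the 5859 ids in the tables, and 38 of these met it. The ratios that chose the set are therefore given as a description, without a test.

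RNA was sequenced from Saccharomyces cerevisiae AWRI R2, a commercial wine strain, grown at 28 °C for 72 h in a defined medium that imitates grape juice (model synthetic medium). Group A received ethanol, the solvent, without PAs (0 g/L), group B 0.1 g/L PAs and group C 1.0 g/L PAs. Each group had 3 libraries, described in the study as biological replicates, so that 9 libraries were made. All flasks were stoppered and kept still to hold the cultures anaerobic, and the cells were in stationary phase when they were collected.

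PAs are the condensed tannins of grape skins and seeds, polymers of flavan-3-ol units that bind to proteins and to the polysaccharides of the yeast cell wall. Yeast in stationary phase has stopped dividing and lives on little nitrogen, rising ethanol and the remaining sugar. Under these conditions a gene can respond in steps to a compound in the medium, or respond at a high concentration alone, and the set described here was formed to hold genes of the second kind. The study asked how PAs act on gene expression during wine fermentation.

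The values were means that the authors deposited for pairs of groups: A with B, A with C and B with C, each over 6 libraries. The level of each group was solved from these 3 means, so that each gene has 1 level per group and no spread between replicates. No replicate error or significance is attached to a level or to a ratio here. The authors' own standard errors and p-values for pairs of groups were not used. The depth of the single libraries was not used either, and all comparisons here are between group means. Genes appear in the tables as running numbers (ids), which are not paired with gene names. No name or function was given to an id, and no promoter or protein sequence was drawn from the reference. The levels are relative, since they come from the authors' normalized counts. In a bulk culture fewer cells with a transcript and less transcript per cell cannot be told apart.

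The id gene2722 had the largest ratio of C to A in the set. Its level was 737 normalized counts in group A, 909 in group B and 6146 in group C. The level in C was thus 8.34 times that in A and 6.76 times that in B, whereas the level in B was 1.23 times that in A. This id lies near the upper end of the band that was allowed for B.

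The id gene287 had the largest level in C, with 1651 normalized counts in group A, 1600 in group B and 12851 in group C. Here the level in C was 7.79 times that in A and 8.03 times that in B, and the ratio of B to A was 0.97. The level in C was the highest of the 3, and the order of A and B was not resolved, as the shifts of the tables show. These 2 ids were named by rule, as the member with the largest ratio of C to A and the member with the largest level in C. The other members are described by their range and number.

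**Figure D1:**
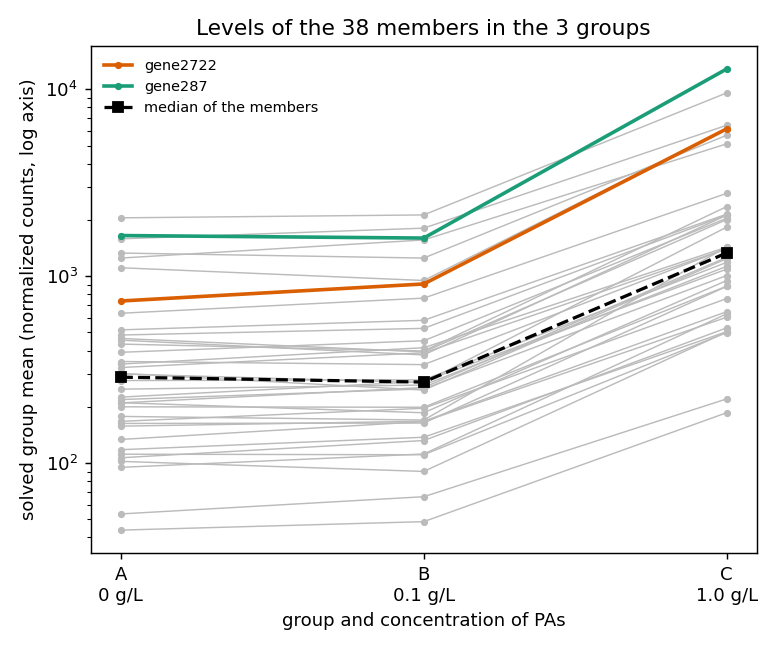
Solved group means of the 38 members in groups A (0 g/L PAs), B (0.1 g/L) and C (1.0 g/L), in normalized counts on a log axis. Each line is 1 gene, gene2722 and gene287 are coloured, and the dashed line joins the medians of the members, which were 288 in A, 271 in B and 1331 in C.

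Over the 38 members, the level in group A lay between 43.8 and 2053 normalized counts with a median of 288. In group B it lay between 48.6 and 2128 with a median of 271, and in group C between 186 and 12851 with a median of 1331. In the plot of levels by group, the lines are nearly flat between A and B and climb between B and C, as the rule requires. The counts are not divided by gene length, so levels of different genes were not ranked as expression.

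Most members had low counts in group A. A limit on the ratio of C to A favours such ids, and how far it accounts for these counts was not tested. In group A, 29 members had between 100 and 1000 normalized counts, 6 had at least 1000 and 3 had fewer than 100. The median level in A was 288 normalized counts over the members, against 1318 over all 5584 ids kept. In group C, the median level was 1331 over the members, against 1443 over all ids kept. There, 25 members reached 1000 normalized counts and 7 reached 5000. The share of all ids that reached these levels was not counted. The smallest level in C was 186, well above the minimum of 50.

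Together the members held 0.0868% of all normalized counts in group A, 0.0773% in group B and 0.433% in group C. Their summed level was 17728 normalized counts in A, 18616 in B and 89695 in C. The sum in C was 5.06 times the sum in A, and the sum in B was 1.05 times that in A. The summed level of all ids was 2.04e+07 in A, 2.41e+07 in B and 2.07e+07 in C. From A to B the share of the members thus fell while their sum rose, so the direction depends on the scale used. A few genes carried much of this sum: the 6 members with the largest levels in C made up 52.2% of it. Without gene287 the sum in C was 4.78 times the sum in A.

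The ratio of C to A was close to the limit of 4 for most of the set. It was under 5 in 28 members, between 5 and 6 in 4 members and at least 6 in 6 members, with a median of 4.51 and quartiles of 4.27 and 5.15. The lowest ratios inside the limit were 4.01, 4.05 and 4.09. The highest ratios outside it, among genes with the same band for B, were 3.97, 3.96 and 3.95. The members are thus the upper tail of a continuous range of ratios and not a group set off by a gap.

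The same held for group B. Its level was above that of A in 24 members and below it in 14, with ratios between 0.81 and 1.25 and a median of 1.07. Over all ids kept the median of this ratio was 1.03, and the share of them above A was not counted. The side on which a member lay was not resolved, as the shifts of the tables show. A total of 18 members had a ratio of B to A of at least 1.1 and 7 had a ratio under 0.9. The ratios nearest to the upper end of the band were 1.2497 and 1.246 inside it, and 1.253 and 1.257 among the ids just outside. At the lower end they were 0.814 and 0.834 inside, and 0.771 and 0.767 outside.

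Compared with group B, the level in group C was between 3.27 and 8.45 times as high in the members, with a median of 4.38. This ratio was at least 4 in 25 of them. A ratio of C to B of at least 3.2 is already fixed by the limits of the rule.

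The ids that reached 4 times the control in group C were divided by the solved level of B. Of the 5584 ids kept, 213 had a level in C at least 4 times that in A, which is 3.81% of them. Of the 213, 38 (17.8%) had B within the band. Another 165 (77.5%) had B above the band and 10 (4.69%) had B below it. Over all ids kept, 55.9% had B within the band, and the quartiles of the ratio of B to A were 0.83 and 1.23. The shares of all ids kept above and below the band were not counted. Counted by band, 1.22% of the 3122 ids with B in the band reached 4 times the control in C, against 7.11% of the 2462 ids with B outside it. The share of 17.8% ranged between 9.25% (26 of 281 ids) with the table of A with C lowered by 5% and 40.9% (56 of 137 ids) with that of B with C lowered by 5%. Across the 6 shifts the share within the band lay between 0.959% and 2.21% and that outside it between 3.30% and 9.997%. Both ratios have the level of A below the line, so an error in A moves them in the same direction, and the shares were not tested.

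**Figure D2:**
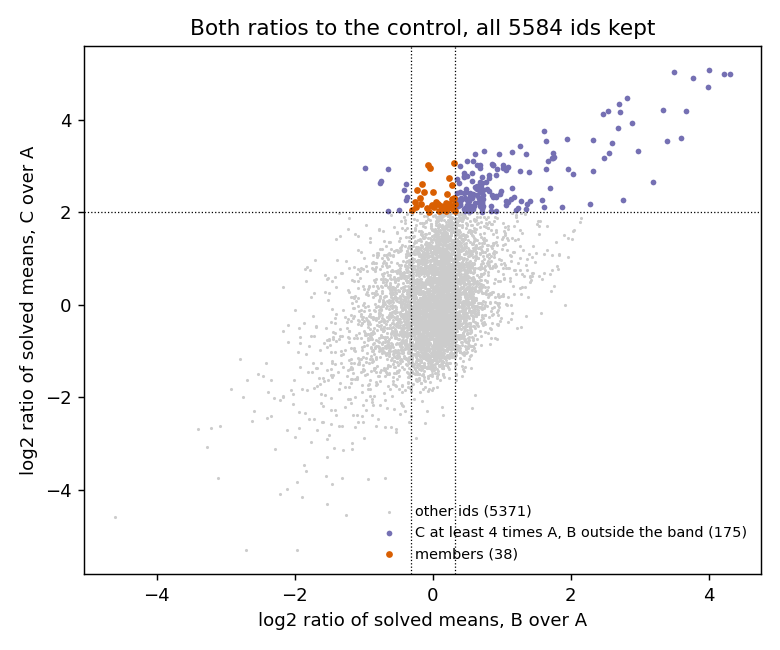
Log2 ratio of C to A (vertical) against log2 ratio of B to A (horizontal) for the 5584 ids kept. Each point is 1 id and the dotted lines are the limits of the rule. The 38 members fill the space between the vertical lines above the horizontal one, next to 175 ids that passed the same limit for C with B outside the band.

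The members differed from these 175 other ids in size as well. The median ratio of C to A was 4.51 in the members, against 5.56 in the other ids. A ratio above that of gene2722 was found in 38 of these other ids, and the largest was 33.6. In the 165 ids with B above the band, the median levels were 588 normalized counts in A, 1012 in B and 3352 in C, and the median ratio of C to B was 3.12, against 4.38 in the members. The median level in A of the members was 288, lower than that of the ids with B above the band. In the 10 ids with B below the band, the median level in A was 171 and the median ratio of C to B was 7.72. A low level in A and a high ratio of C to B were therefore not particular to the members. No test was attached to these differences, since the rule itself sets the band and the ratio.

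The opposite pattern was met by fewer ids. B lay within the band in 38 of the 213 ids with the higher level in C, and in 7 (7.07%) of the 99 ids with a level in C at most 0.25 times that in A, which were 1.77% of all ids kept. In 91 of the 99 ids the ratio of B to A was below the band, and the share of all ids kept below it was not counted. The count of 7 was not repeated under the shifts of the tables, and the difference between these shares was not tested. Of all ids with B in the band, 2330 had a ratio of C to A between 0.5 and 2, 340 between 2 and 3, and 118 between 3 and 4. The median ratio of C to A in the 3122 ids was 0.99.

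The size factors of the 3 tables were set separately, and the levels of A and B in the members depend on this. The difference between A and B comes from the difference between the mean of A with C and the mean of B with C, both of which are large where C is large. In the members these 2 means differed by a median of 2.33% and by at most 4.68%. When the means of 1 table at a time were raised or lowered by 5%, the ratio of B to A of gene2722 ranged between 0.80 and 1.94 and that of gene287 between 0.61 and 1.52. For all 38 members the ratio was below 1 under one such shift and above 1 under another. The limits of the rule already bring this about for shifts of 5%, so it is not an observation about these genes. A difference between B and A of the size that the band allows could therefore not be resolved between tables that differ in scale by 5%. Of the 38 members, between 6 and 34 met the rule under a given shift, and 0 met it under all 6. The 0 is fixed in advance. With C at least 4 times A, no ratio of B to A stays in the band under both shifts of the table of A with C. Rescaling the tables so that the median ratios of B to A and of C to A over all ids were 1 took smaller changes, of 0.453% in the table of A with C and -1.05% in that of B with C, and 28 of the 38 members still met the rule.

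The ratio of C to A, which defines the set, also moved with the shifts. For gene2722 it ranged between 6.54 and 11.3 and for gene287 between 6.21 and 10.2. The lowest value of a member under any shift was 3.46, and the median over the members of their lowest values was 3.83, under the limit of 4, whereas that of their highest values was 5.40.

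The level in C can also be set against the mean of A and B, which is read directly from 1 table. By this measure the level in C was between 3.63 and 8.26 times as high in the members, with a median of 4.43. Over all 5584 ids the median of this ratio was 1.01. A ratio of at least 3 was found in 359 of them (6.43%), all 38 members included, so it was not particular to the members. Across the 6 shifts the ratio lay between 7.07 and 7.91 for gene2722 and between 7.48 and 8.38 for gene287, and its lowest value in any member was 3.41. These values are a description: the limits of the rule alone place the ratio at 3.56 or more, and a shift of 1 table by 5% can move it by little.

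**Figure D3:**
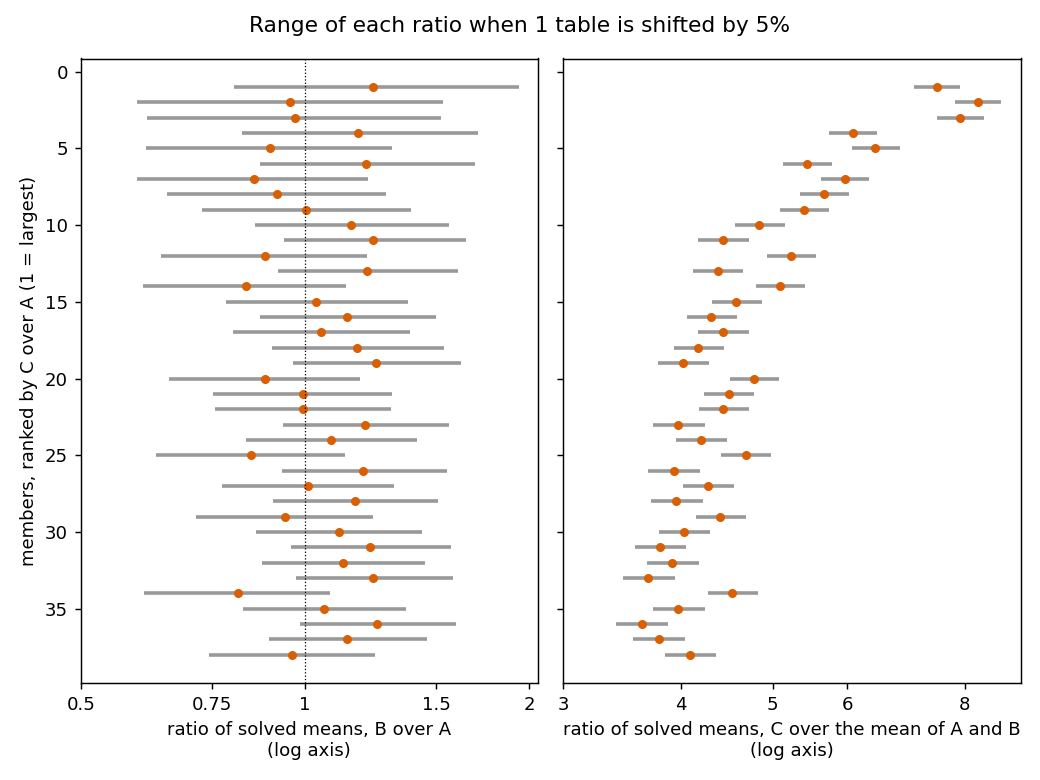
Ratio of B to A (left) and of C to the mean of A and B (right) for the 38 members, ranked by C over A, on log axes. Points are the values as deposited and grey bars span the lowest and highest value when 1 table is shifted by 5%. The bars of B over A cross 1 in all 38 members, which the limits of the rule bring about for shifts of this size. Those of C over the mean of A and B stay above 3.41.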

How the data were processed

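According to the study and the labels, the authors trimmed reads with Trimmomatic 0.30, aligned them with HISAT2 2.0.1 to the S288C genome from NCBI and counted with HTSeq 0.6.1, and the authors compared pairs of groups with the DESeq package. The build of the genome is not given in the sources used here. In each of the 3 tables the authors deposited a mean normalized count per id over 6 libraries, used here as a signal. The other columns hold the authors' own fold changes, standard errors, statistics and p-values, and these were not used.

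With x, y and z as the means of A with B, A with C and B with C, the levels were solved as A = x + y - z, B = x + z - y and C = y + z - x. Ids were kept with all 3 levels above 0 and the largest at least 50. This removed 89 ids with a level at or below 0, of which 71 had 0 in all tables, and 186 ids with low levels. Genes named in the pathway table of the study were to be left out. The ids used here carry no names, so 0 ids were matched and left out, and whether a member is such a gene was not tested. The solution was also run on simulated means with a common scale, where the algebra alone returns the group means. That run checks the arithmetic and cannot test levels solved from tables that were normalized separately. The members and their limits were chosen with earlier results of these data known. The lists of named pathways foreseen in the design were not analysed because they need gene names. Python 3.11.15, numpy 2.4.6, pandas 2.3.3 and matplotlib 3.10.9 were used.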

Additional observations from a re-analysis of the deposited data

How the results depend on the processing

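No paired analysis was possible because the tables hold no value per library, and leaving out a replicate was not run for the same reason. The 38 members became 92 with B between 2/3 and 3/2 of A, 14 with B within 0.9 and its inverse, 156 with C at least 3 times A and 6 with C at least 6 times A. Their median ratio of C to A, 4.51 as reported, was 4.75, 4.45, 3.57 and 7.21 under these limits. With a pseudocount of 10 there were 34 members with a median ratio of 4.38. With the tables rescaled to median ratios of 1, which changed the table of A with C by 0.453% and that of B with C by -1.05%, there were 49 members with a median ratio of 4.56. Of these, 28 were among the 38 (57.1% of the 49 and 73.7% of the 38). A shift of 1 table by 5% gave between 26 and 67 members. The number was 67 with the table of A with C raised, and 10 of these were among the 38. The 213 ids with C at least 4 times A became 137 with the table of B with C lowered by 5% and 336 with it raised. Minimum levels of 20 and 200 gave 38 and 37 members. The missing spread between replicates limits every value, and the depth of the single libraries was not used.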
